A study of Oryctolagus cuniculus with 10 samples.

Results

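Nuclear receptors are transcription factors that are switched by small lipid-soluble molecules, and 34 of their genes were measured here in the liver of rabbits receiving dietary squalene. The genes were chosen by symbol from a list of 38 nuclear receptors that leaves out the LXR, FXR and PPARA genes, and the expression table holds 19123 genes in all. RXRA, NR2F6, NR2E3 and NR5A1 are absent from the table under these symbols and have no value here. The measured genes comprise 2 thyroid hormone receptors, 5 retinoid receptors, 5 receptors of foreign compounds, vitamin D and fatty acids, 5 steroid hormone receptors and 17 orphan receptors, whose natural ligand is unknown or was long unknown. Each of the 34 gene IDs was found in the RefSeq gene table of assembly mOryCun1.1 with the same symbol.

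The study compared liver messenger RNA of 5 rabbits fed squalene with that of 5 control rabbits. Squalene, a triterpene from which cells make sterols, was given at 0.5% in a diet that also held 1% sunflower oil, and control animals received the sunflower oil diet without it, both for 4 weeks. All animals were male wild-type New Zealand white rabbits, and all were starved before the livers were taken. One legend of the study describes the sequenced RNA as partially pooled, while the labels give 1 library per rabbit.

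A nuclear receptor binds a response element in DNA, alone, as a pair of itself or paired with a retinoid X receptor, and its ligand exchanges corepressors for coactivators on the receptor. In the liver, thyroid hormone receptors set lipid and cholesterol turnover, and the xenobiotic receptors CAR and PXR turn on the cytochromes P450 and transporters that clear drugs and steroids. The glucocorticoid receptor turns on gluconeogenesis during fasting, and several orphan receptors take part in bile acid synthesis and in the daily rhythm of metabolism.

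The table of the comparison gives 1 expression level per diet and no value per rabbit, so the levels carry no replicate error and no difference in level was tested. Levels of 1 or more lost their decimal mark in the deposited table, so for most genes only the ratio of the squalene level to the control level is known, and no level is printed for them. The ratio was read at the power of 10 that puts it nearest to 1, a reading that goes wrong, direction included, for a gene more than 3.16-fold apart. Outside 7 receptors whose levels were matched to whole reads, as given further on, the levels do not show which genes these are, receptors included. Every ratio given holds for this reading. In genes of few reads the level of a diet is not a plain mean over its rabbits, as given further on. Ratios of other genes may likewise differ from ratios of plain means, which was not tested. Whole liver was sequenced, so fewer cells of a type and less RNA per cell cannot be told apart.

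Most receptor genes had a somewhat lower level on squalene. The level was higher on squalene for 12 of the 34 receptors and lower for 22, which is 64.7% lower against 47.3% of all genes. The median log2 ratio of squalene over control was -0.13 over the receptors and 0.02 over all genes. Past a fold of 1.5, which serves here as the size of a call, lay 2 receptors, PPARD and NR4A1, both lower on squalene at the nearest power of 10. This is 5.88% of the receptors, against a background of 7.69% of all genes past that fold in either direction, with 3.0% past it in the lower and 4.7% in the higher direction, and of 8.58% of the genes with both levels at 1 or more. At a milder fold of 5 to 4, 9 receptors lay lower and 1 higher, 29.4% of the receptors against 29.2% of all genes, of which 12.8% lay lower and 16.4% higher. No receptor lay past a fold of 2, against 0.999% of all genes, though NR4A1 lay so close to it that it passed once the median of all genes was subtracted (log2 ratio -1.02). With both directions counted together, the share of receptors past each of these folds was close to the background or below it. In the lower direction alone it was 26.5% against 12.8% at a fold of 5 to 4 and 5.88% against 3.0% at 1.5, and in the higher direction 2.94% against 16.4% at a fold of 5 to 4.

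**Figure D1:**
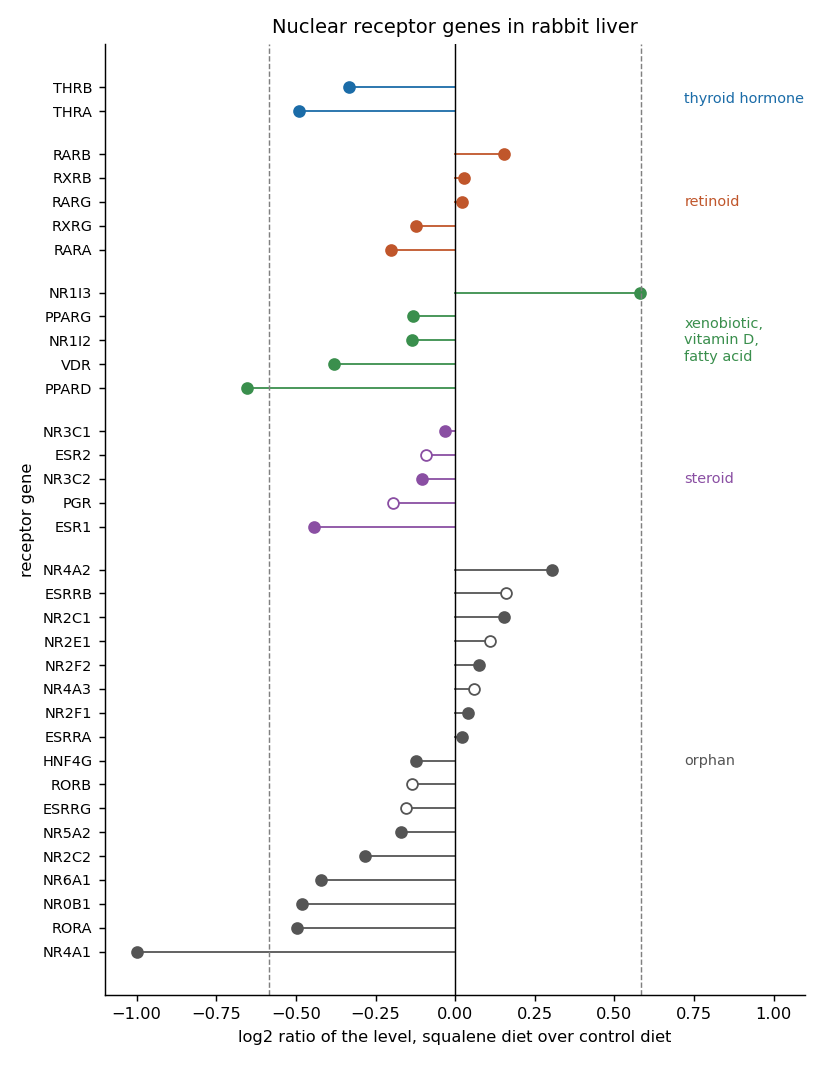
Log2 ratio of the expression level in the squalene diet over the control diet (horizontal axis) for the 34 measured nuclear receptor genes (vertical axis), grouped by role; open circles mark the 7 genes with few reads and dashed lines a fold of 1.5. NR4A1 (-1.0) and PPARD (-0.65) lie beyond the lower line, and NR1I3 (0.58) lies just inside the upper one.

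The length of the transcript moved with the ratio across the whole table. Of 3913 genes with a length of 4000 bases or more, 65.8% had the lower level on squalene and the median log2 ratio was -0.11. Of 8437 genes shorter than 2000 bases, 35.4% were lower and the median was 0.10. Among the receptors, 10 of 12 with a length of 4000 bases or more were lower on squalene (median -0.21), as were 7 of 14 between 2000 and 4000 bases (median -0.03) and 5 of 8 shorter ones (median -0.14). The part of length in the low ratios of the receptors was not tested.

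**Figure D2:**
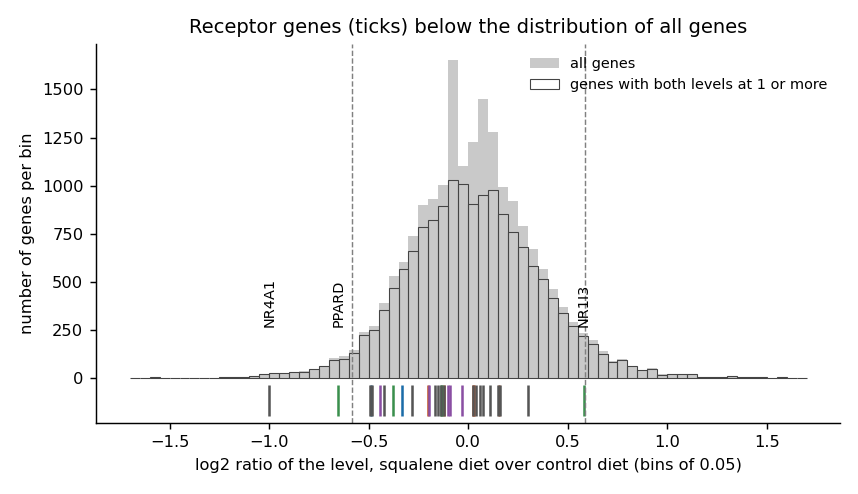
Number of genes (vertical axis) by log2 ratio of squalene over control (horizontal axis, bins of 0.05) for all 19123 genes in grey and for the 15928 genes with both levels at 1 or more in outline; ticks below the bars mark the 34 receptors in the colours of their roles and dashed lines a fold of 1.5. The ticks lie mostly left of 0, and NR4A1 has a larger change than 99.0% of all genes.

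Both thyroid hormone receptors had a lower level on squalene. THRA, the form that prevails in heart and bone, was at 71.2% of its control level (log2 ratio -0.49). THRB, the main hepatic form, through which thyroid hormone lowers blood cholesterol, was at 79.4% (-0.33). Both have a length above 4000 bases. Of 12 genes that make, carry or answer thyroid hormone, all measured, 7 were higher and 5 lower on squalene, with a median log2 ratio of 0.04, near that of all genes. DIO1, the hepatic deiodinase that forms the active hormone, had the highest ratio of this list (0.68) and alone lay past the fold of 1.5. This is 8.33% of the list, close to the 7.69% of all genes past that fold. ME1, malic enzyme, a classical thyroid hormone target, had the lowest (-0.52).

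The retinoid receptors lay close to the control level. RARA, RARB and RARG bind all-trans retinoic acid and had log2 ratios of -0.20, 0.15 and 0.02. RXRB and RXRG, partners of many other receptors, had ratios of 0.03 and -0.12, while RXRA, the main hepatic partner, was not in the table. The 5 retinoid receptors therefore ranged from 87.0% of control for RARA to 111% for RARB, with 3 higher and 2 lower. Of 19 genes that supply retinoids or answer them, 15 were measured, 9 higher and 6 lower on squalene, with a median of 0.09. STRA6, the cell surface receptor of retinol-binding protein, had the highest ratio (0.72), and CRABP1, a binding protein of retinoic acid, the lowest (-0.68).

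The receptors of foreign compounds, vitamin D and fatty acids included the highest ratio of all, with 1 of the 5 higher and 4 lower on squalene. NR1I3, which encodes the xenobiotic receptor CAR, had the highest ratio of all 34 receptors, with a level at 149% of control (log2 ratio 0.58, a fold of 1.49), and 92.1% of all genes had a smaller change. NR1I2, which encodes the pregnane X receptor PXR, was at 91.0% of control (-0.14). In the RefSeq table NR1I3 overlaps TOMM40L, a gene of the mitochondrial protein import family, whose own log2 ratio was -0.49. The overlap is one of gene spans on mOryCun1.1, while reads were mapped to OryCun2.0, and an overlap of exons was not examined. The library protocol does not state that strand was kept, so any reads from shared bases could not be told apart.

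Of 22 listed targets of CAR and PXR, 13 were measured, 8 higher and 5 lower on squalene, with a median of 0.12. The cytochromes P450 CYP3A6 and CYP2C1 had log2 ratios of 1.10 and 1.10, and CYP2B4, a rabbit member of the subfamily that CAR is best known for, had -0.62. These cytochromes have close copies in the rabbit genome, so reads may be split between copies and the ratios are uncertain. The study itself reports no change of CYP2B or CYP2C genes in these rabbits, with the data not shown.

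VDR, the vitamin D receptor, was at 76.9% of control (-0.38). Of 7 genes of vitamin D supply and response, 4 were measured, 1 higher and 3 lower, with a median of -0.51. CUBN and LRP2, partners in the uptake of the vitamin D carrier in the kidney, had log2 ratios of -1.0 and -0.92, and CYP27A1, a sterol hydroxylase, had 0.29. Of these 4 genes, 2 have a length of 4000 bases or more.

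PPARD, a receptor of fatty acids that favours their oxidation, was at 63.6% of its control level (log2 ratio -0.65, a fold of 1.57), and 94.6% of all genes had a smaller change. PPARG, the receptor of the same family that drives fat cell formation, was at 91.2% (-0.13).

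Each of the 5 steroid hormone receptors had the lower level on squalene, by small amounts in most, while 47.3% of all genes were lower. NR3C1, the glucocorticoid receptor, was at 97.8% of control (-0.03), and only 8.11% of all genes had a smaller change. NR3C2, the mineralocorticoid receptor, was at 93.1% (-0.10). ESR1, the main estrogen receptor of liver, had the lowest ratio of the group, at 73.5% of control (-0.44). ESR2, the other estrogen receptor, was at 93.9% (-0.09), and PGR, the progesterone receptor, at 87.4% (-0.19), both from few reads as given further on. The median of the 5 was -0.10.

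Of 19 glucocorticoid supply and target genes, 16 were measured, 9 higher and 7 lower on squalene, with a median of 0.17. At the low end were ZBTB16 (-1.17), a zinc finger transcription factor, FKBP5 (-0.97), a cochaperone that restrains the receptor, and PER1 (-0.92), a clock gene. PCK1, the gluconeogenic phosphoenolpyruvate carboxykinase, was at the high end with 0.64. Of the 16 genes, 25% lay past the fold of 1.5, against 7.69% of all genes, with 1 higher and 3 lower. In the corresponding lists of the other receptor groups this share ran from 8.33% (thyroid hormone) to 50% (vitamin D, 4 genes measured). FKBP5 is also counted among the chaperones given further on.

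Of 20 genes that make or break down sex steroids, 13 were measured, 10 higher and 3 lower on squalene, with a median of 0.10. HSD17B1, which forms estradiol, had the highest ratio (0.80). HSD17B7, which serves both estradiol and cholesterol synthesis, had the lowest (-0.65).

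The orphan receptors fell on both sides, with 8 of 17 higher and 9 lower on squalene and a median of -0.12. The NR4A receptors are early response genes that are induced within a short time of a stimulus, and the 3 of them had unlike ratios. NR4A1 was at 50.0% of its control level (log2 ratio -1.0, a fold of 2.00), the lowest ratio of all 34 receptors, and 99.0% of all genes had a smaller change. As for most genes that lost their decimal mark, the levels alone leave another reading, and at the next power of 10 the NR4A1 level would be 5.00-fold higher on squalene. NR4A2 was at 123% of control (0.30), and NR4A3 at 104% (0.06), the latter from few reads as given further on.

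RORA, an activator of clock and lipid genes in liver, was at 70.9% of control (-0.50). Its relative RORB, a receptor of brain and retina, had a log2 ratio of -0.14 from 2 reads in all. NR0B1, a corepressor known from the adrenal gland and gonads, was at 71.6% (-0.48), and NR6A1, the germ cell nuclear factor, at 74.7% (-0.42). The testicular receptors had ratios on both sides, with 0.15 for NR2C1 and -0.28 for NR2C2. In the RefSeq table NR2C2 overlaps MRPS25, a mitochondrial ribosomal protein gene, whose log2 ratio was -0.07.

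The other orphan receptors lay within a fold of 5 to 4 of the control level. Of these, ESRRG, ESRRB and NR2E1 rest on few reads, as given further on. NR5A2, an activator of bile acid synthesis genes, was at 88.9% of control (-0.17). HNF4G, a relative of the hepatocyte factor HNF4A, was at 91.9% (-0.12). The estrogen-related receptors ESRRA and ESRRG, regulators of mitochondrial genes, had log2 ratios of 0.02 and -0.15, and ESRRB, known from stem cells, had 0.16. NR2F1 and NR2F2, which encode the COUP transcription factors, had 0.04 and 0.08, and NR2E1, a receptor of neural stem cells, had 0.11.

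Low genes kept their decimal mark, and their levels show how they were made. Over the 2953 genes with both levels below 1, the mean of the squalene and the control level fell on steps, and the 10 commonest values, from 0.0869 to 0.134, were shared by 907 genes. Each of 1000 such genes tried was matched by exactly 1 whole-number combination of these 10 steps, as were 242 of 242 genes with 1 level below 1, so a step is the worth of 1 read in 1 of the 10 libraries. The mean of both levels is therefore a normalised read count per library. The levels of the diets are not plain means over 5 rabbits, which would put a single read wholly in one diet. For the 907 genes whose single read sits in 1 library, the squalene and control levels instead differed by a log2 ratio of only 0.07 to 0.11 in size, so the ratios of low genes are drawn toward no difference. Whether and how far the ratios of genes with higher levels are drawn in the same way was not tested.

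The same matching gave the reads behind 7 receptors, all with mean levels under 6. RORB rested on 2 reads in 1 library, with levels of 0.166 in the squalene diet and 0.182 in the control diet. ESR2 rested on 3 reads in 3 libraries, with levels of 0.273 in the squalene diet and 0.291 in the control diet. NR2E1 also had 3 reads in 3 libraries, with levels of 0.284 in the squalene diet and 0.263 in the control diet. RORB shared both levels with 16 other genes, and ESR2 and NR2E1 with 1 other gene each, since few reads allow few values.

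ESRRG had 19 reads in 8 libraries, with levels of 1.70 in the squalene diet and 1.90 in the control diet. ESRRB had 31 reads in 9 libraries, with levels of 3.25 in the squalene diet and 2.91 in the control diet. PGR had 37 reads in 10 libraries, with levels of 3.43 in the squalene diet and 3.93 in the control diet. NR4A3 had 49 reads in 10 libraries, with levels of 4.87 in the squalene diet and 4.67 in the control diet. With 2 or 3 reads over all libraries, a difference between the diets in RORB, ESR2 or NR2E1 was not detectable at this depth. Of the other receptors, 18 had no match and so a mean level of 10 or more, if the nearest power of 10 holds for them. For 9 the level could not be placed. Without the 7 low receptors, 18 of 27 had the lower level on squalene and the median log2 ratio was again -0.13.

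**Figure D3:**
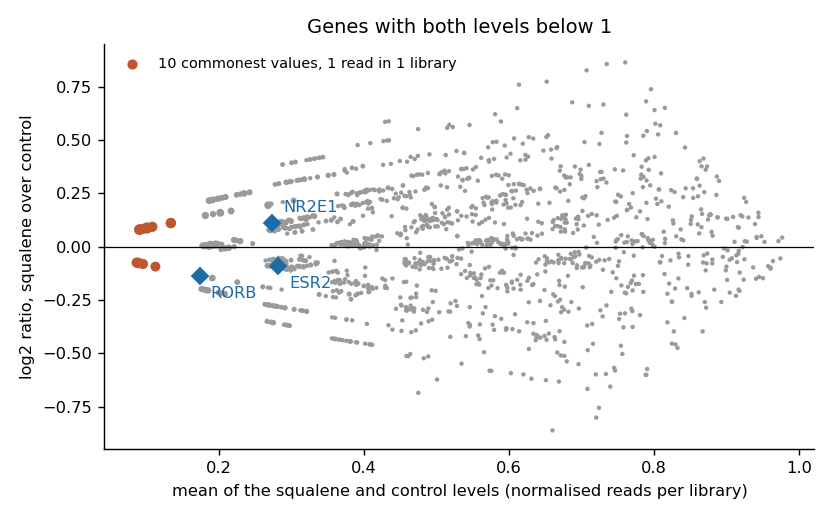
Log2 ratio of squalene over control (vertical axis) against the mean of both levels in normalised reads per library (horizontal axis) for genes with both levels below 1; red circles mark the 10 commonest values, where a gene has 1 read in 1 library, and blue diamonds the receptors RORB, ESR2 and NR2E1. The ratios at the left edge lie between 0.07 and 0.11 in size on either side of 0, and the receptors sit among the genes of 2 or 3 reads.

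Genes of the proteins that nuclear receptors work through had the lower level on squalene in most cases. Of 18 coactivators and corepressors, all measured, 4 were higher and 14 lower, with a median log2 ratio of -0.28. NCOA4 had the highest ratio (0.29). PPARGC1A, a fasting-induced coactivator of gluconeogenesis and mitochondrial genes, had the lowest (-0.67), followed by the coactivator NCOA6 (-0.60). These 2 lower genes were past the fold of 1.5, which is 11.1% of the list against 7.69% of all genes. The acetyltransferases CREBBP and EP300, inside that fold, had ratios of -0.46 and -0.46. In this list 13 of the 18 genes have a length of 4000 bases or more, a class whose median over all genes was -0.11, and the part of length was not tested.

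Of 8 chaperones that hold steroid receptors ready for their hormone, 2 were higher and 6 lower, with a median of -0.31. Of these 8 genes, 1 has a length of 4000 bases or more, and the part of length was not tested. FKBP5 (-0.97) was at the low end and PTGES3 (0.19), which encodes the cochaperone p23, at the high end. Of 10 nuclear receptors that belong to other pathways, 6 were higher and 4 lower, with a median of 0.18. HNF4A, which maintains the identity of hepatocytes, had the lowest ratio (-0.66), and NR0B2, the small heterodimer partner, had the highest (0.25).

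Markers of liver cell types were set beside the receptors, by ratio alone, since markers cannot be ranked by level without their decimal mark. Hepatocyte markers, 9 of 10 measured, were 6 higher and 3 lower on squalene with a median of 0.03, between CPS1 (-0.39) and TTR (0.43). Of the Kupffer cell and macrophage markers, 8 of 9 measured were higher (median 0.22), from MARCO (-0.12) to TIMD4 (0.64). Of the lymphocyte markers, 7 of 9 were higher (median 0.18), from NKG7 (-0.38) to CD79B (0.48), and of the cholangiocyte markers 3 of 5 (median 0.23), from KRT7 (-0.30) to EPCAM (0.52). Endothelial markers were lower in 8 of 9 (median -0.17), from STAB2 (-0.40) to CLEC4G (0.32). Stellate cell and fibroblast markers were 5 higher and 6 lower, with a median of -0.00, from COL1A1 (-0.26) to LUM (0.46). The median of the endothelial markers thus lay on the same side as that of the receptors and the median of the macrophage markers on the other. A length of 4000 bases or more was found in 5 of 9 endothelial and 0 of 9 macrophage markers. The part of cell types or of length in these ratios was not tested.

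Of 10 erythroid and muscle markers 6 were measured. The muscle genes MYH6, with -1.55 or, at the next power of 10, 1.77, and TTN, with 1.57 or -1.75, have 2 readings of like size, so no direction is given for them here. Of the other 4 markers 1 was higher and 3 lower on squalene, with a median of -0.04.

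**Figure D4:**
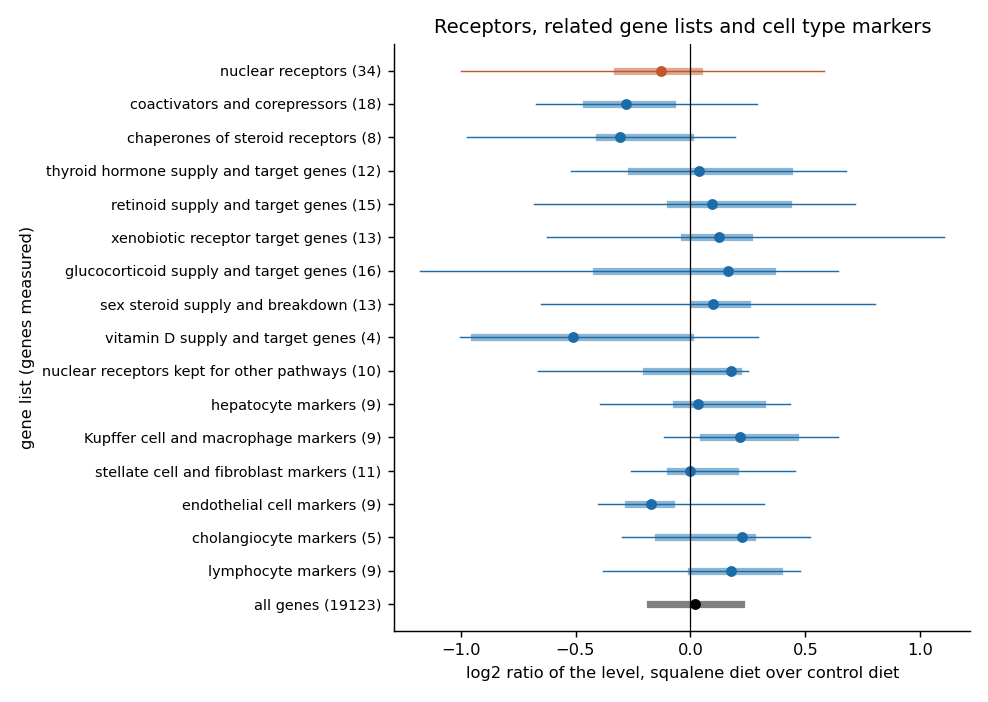
Log2 ratio of squalene over control (horizontal axis) for the receptors, the related gene lists and the cell type markers (vertical axis, with the number of genes measured); points are medians, thick bars the range between the quartiles and thin lines the range, which is left out for all genes. The medians of the receptors (-0.13), of the coactivators and corepressors (-0.28) and of the chaperones (-0.31) lie left of that of all genes (0.02).

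Splicing gave a value per rabbit for some of these genes. The deposited splicing tables list 46 events in 39 genes, of which 2 events lie in receptor genes, 1 in NR2C2 and 1 in NR6A1. These events had been kept by a threshold on the same rabbits, so a low p in them is not independent evidence. Of the 46 events, 54.3% had p under 0.05 in an exact permutation test (two-sided, over rabbits, 5 against 5), and 17.4% an adjusted p under 0.05 after Benjamini-Hochberg adjustment over the 46. The smallest p of this design is 0.00794.

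In NR2C2, which encodes the testicular receptor TR4, an exon can end at either of a pair of 5′ splice sites, and the longer form adds 38 bases. On genome build OryCun2.0 the long exon is listed from 10563733 to 10563871, the short one from 10563733 to 10563833 and the following exon from 10564724 to 10564830, on the plus strand of the sequence NC_013677.1. The long form took 91.3%, 100%, 100%, 88.9% and 100% of the reads in squalene rabbits, against 86.4%, 72.2%, 91.7%, 81.3% and 77.8% in control rabbits. The squalene rabbits sat higher, but 1 control rabbit lay above 2 of them, so the groups overlap.

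The long NR2C2 form took on average 96.0% ± 5.49 of the reads in squalene rabbits and 81.9% ± 7.52 in control rabbits (SD, n = 5 each). The difference was 14.2 percentage points (exact permutation test, p = 0.0238, adjusted p = 0.0782), so it did not pass after adjustment over the 46 events. It rests on 55 reads in squalene rabbits and 102 in control rabbits, with 4 in the rabbit with the fewest. Pooled over rabbits, 94.5% of the reads in squalene rabbits and 81.4% in control rabbits were of the long form. The extra 38 bases are not a whole number of codons, and the file does not state whether they are translated.

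In NR6A1 either of a pair of neighbouring exons is used, the first listed from 2768528 to 2768584 and the second from 2775374 to 2775529, on the plus strand of the sequence NW_003159325.1 of OryCun2.0. They lie between exons listed from 2755975 to 2756218 and from 2776587 to 2776812. The first exon took 0%, 0%, 33.3%, 25% and 0% of the reads in squalene rabbits, against 50%, 36.4%, 0%, 37.5% and 33.3% in control rabbits. Of the control rabbits, 3 sat above every squalene rabbit, but 1 had no read of the first exon, and the groups overlap.

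The first NR6A1 exon took on average 11.7% ± 16.2 of the reads in squalene rabbits and 31.4% ± 18.7 in control rabbits (SD, n = 5 each). The difference of -19.8 percentage points did not pass the test (exact permutation test, p = 0.111, adjusted p = 0.146). The reads were few, 15 in squalene rabbits and 33 in control rabbits, with 1 in the rabbit with the fewest. That control rabbit without a read of the first exon had 2 reads. Without it the difference was -27.6 points (exact permutation test, p = 0.0317). Of 10 settings that each left out 1 rabbit, this was the only one with an unadjusted p under 0.05. It drops a rabbit that lay against the difference, so no conclusion is drawn from it.

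**Figure D5:**
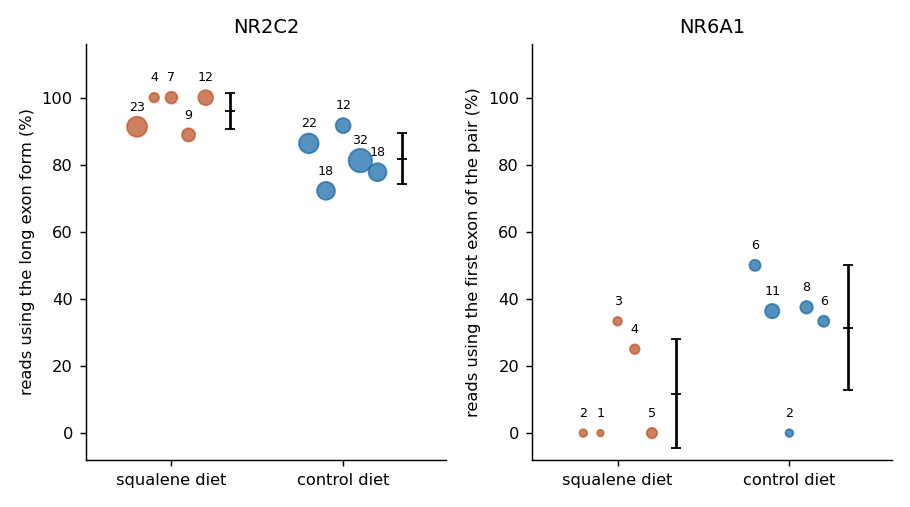
Share of reads in percent (vertical axis) that used the long exon form of NR2C2 (left) and the first of the paired exons of NR6A1 (right) in each of 5 squalene and 5 control rabbits; the number above a point and its size give the reads behind it, and bars show the mean and SD. NR2C2 averages 96.0% in the squalene diet and 81.9% in the control diet, NR6A1 11.7% and 31.4%, and the groups overlap in both genes.

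The table of single base changes holds 1 site within the span of the NR2C2 event and 5 within that of NR6A1. The NR2C2 site, at 10563975 in the intron, had reads in 4 squalene and 3 control libraries and the changed base in 1 squalene and 0 control libraries. At 2776680, in the downstream exon of NR6A1, the change was seen in 3 of 4 squalene and 5 of 5 control libraries with reads. No difference between the diets was tested at these sites.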

How the data were processed

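Reads of poly-A selected RNA were filtered and mapped to OryCun2.0 with HISAT2 by the authors, who predicted further transcripts with StringTie, quantified genes with Bowtie and RSEM, called bases with GATK and splicing with rMATS. Versions are not given in the sources used here. The authors deposited 1 expression level per diet and gene, on the scale of normalised read counts, the gene length in bases, for selected splicing events the count of reads with and without the alternative piece in each rabbit, and the base called in each library. The table of levels also holds the log2 fold change, p-value, adjusted p and direction of the authors' own comparison, and the splicing tables their p-values, and none of these was used. Depth per library was not used, as 18 columns of library sheets match no single sample label. Reads per gene are known for 7 receptors, so no counting interval is given.

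The log2 ratio of squalene over control was taken at the power of 10 nearest to 1, and a fold of 1.5 counted as past the fold. This replaces a test, as planned for a table without values per rabbit. Reads were recovered for genes with mean levels under 6 as whole-number combinations of 10 steps, to an absolute tolerance of 1e-14 in the mean level, without assigning libraries to a diet. Splicing values at the same place in the cells for including and skipping reads were taken as 1 rabbit. Splicing percentages are shares of reads and were not corrected for the lengths of the alternative forms. Python 3.11.15, numpy 2.4.6, scipy 1.17.1, pandas 2.3.3 and matplotlib 3.10.9 were used. The procedures were tested on simulated data. The simulated ratios were of a size at which the nearest power of 10 holds, so the case in which it fails was not tried. All receptors found are named, with the highest and lowest gene of each list and up to 4 past the fold of 1.5, while CREBBP and EP300 were picked with their values in view. The receptors and the lists were chosen with earlier results of these data known. The comparison by transcript length was added after seeing the data. Exon positions are printed as listed, and whether starts are counted from 0 is not stated.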

Additional observations from a re-analysis of the deposited data

How the results depend on the processing

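The 34 receptor ratios kept their direction when the median of all genes, 0.02, was subtracted. The count of receptors past the fold depends on the fold, with 10 of 34 at a fold of 5 to 4 and 0 at 2, or 1 at 2 (NR4A1) with that median also subtracted, as does the background, with 29.2% and 0.999% of all genes. Among genes with both levels at 1 or more it was 8.58%. The median over the receptors lay between -0.15 and -0.13 under the alternatives run. Both splicing events had been kept by a threshold on these same rabbits, so p-values from leaving rabbits out are not independent evidence for them. Leaving out each rabbit in turn, the NR2C2 difference ranged from 11.8 to 16.6 percentage points, with p from 0.0159 to 0.0476 in the exact permutation test. The NR6A1 difference ranged from -27.6 to -15.1 points, with p from 0.0317 to 0.206 in the exact permutation test, and passed an unadjusted 0.05 in 1 of 10 such settings. A minimum of 10 reads in every rabbit left neither event. Leaving out low receptors and genes below 1, and the fold of 2 with the median subtracted, were chosen after seeing the data. No paired analysis was possible because the levels are 1 per diet and the splicing values carry no replicate number. The lack of a level per rabbit limits every statement on expression, and the low read numbers limit those on splicing.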
